A study of Danio rerio with 16 samples.

Results

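The 10 zebrafish genes opn3, opn4a, opn4b, opn5, opn8a, opn8b, opn8c, valopa, valopb and exorh encode opsins that do not serve rod or cone vision. They were chosen by symbol, and every row of the deposited count table that carries one of these symbols, with or without a numbered ending such as _1, was taken and summed. All 10 were found, in 13 rows, among 30565 symbols. The list was proposed with the levels of these libraries known, and the difference between the reporter-negative groups was noted at that time. Levels and that difference are therefore given as a description, without a p-value for that difference. Tests of reporter-positive against reporter-negative cells come from fits of all symbols and, for single members, from exact permutation of their levels. Because the members were chosen with these levels known, neither kind of test gives independent support. Nothing is read from how many members passed. Of the 10 genes, 6 had counts and 4 (opn4a, opn8a, opn8c and valopb) had 0 counts in all 16 libraries; the 6 are those that passed the filter on low counts.

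Opsins are G protein-coupled receptors that hold a retinal chromophore and signal when light changes its shape. Besides the pigments of rods and cones, vertebrates carry nonvisual families: melanopsins, which couple to Gq and phospholipase C, neuropsins and the related opn8 genes, encephalopsin, vertebrate ancient opsins, and pineal opsins. In fish and birds several of these are made in neurons deep in the brain, the hypothalamus included, where light reaches them through the skull. Exo-rhodopsin, the product of exorh, is instead known as the pigment of pineal photoreceptors, so the name deep-brain opsin does not cover it.

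The libraries come from whole brains of transgenic zebrafish aged 1 month, with 8 brains pooled per replicate and 4 replicates per group. LH cells are the GCaMP6s-positive cells of Tg(76A:Gal4FF:UAS:GCaMP6s), the line used for the lateral hypothalamus, and non-LH cells are the GCaMP6s-negative cells of that line. cH cells are the GFP-positive cells of Tg(116A:Gal4FF:UAS:GFP), the line used for the caudal hypothalamus, and non-cH cells are its GFP-negative cells. All 4 groups carry Gal4FF and a UAS reporter, and no treatment is given in the labels. Each population is defined by what its driver labels, so a negative fraction holds the unlabelled cells of the whole brain, and the sort of one line does not remove the cells that the other line labels. Line and reporter differ together, and so cannot be told apart between LH and cH or between non-LH and non-cH.

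Library totals ran from 26848940 to 49350823 counts. Levels are CPM, counts scaled to a common library size with TMM factors. Each mean ± SD is over 4 libraries, and levels are compared between groups and not between genes, because no transcript lengths were used. The cH libraries stood apart: they detected 13478 to 16887 symbols, against 18843 to 20541 in non-cH, 19430 to 20038 in LH and 20572 to 21015 in non-LH. Correlations of log2 CPM between libraries of a group ran from 0.673 to 0.863 in cH and from 0.909 to 0.958 over the other groups. Of a list of 6 caudal markers, 2 were called higher in cH than in non-cH and 0 lower. In a fit of the 8 cH and non-cH libraries 3 were higher and 0 lower. The 2 were th2 (log2 fold change 5.24 ± 1.13 SE) and tph1a (5.42 ± 0.88), genes of monoamine synthesis. th2 stood at 219 ± 251 CPM in cH and 5.78 ± 5.97 CPM in non-cH. tph1a stood at 269 ± 283 CPM in cH and 6.28 ± 2.71 CPM in non-cH, so in cH both had an SD above the mean. A list of 10 pan-neuronal markers summed to 286 to 1457 CPM in cH and 7635 to 9458 CPM in non-cH, with 10 of 10 called lower. A list of 11 radial glia and ependymal markers summed to 54820 to 101100 CPM in cH and 3300 to 10160 CPM in non-cH, with 10 of 11 called higher. Over all symbols 2712 of 20241 were called lower in cH and 1425 higher. In the 8 cH and non-cH libraries 9 of 10 neuronal markers were lower and 9 of 11 glial markers higher. Over all symbols that fit called 1182 of 17265 lower and 872 higher. In bulk samples of this kind, fewer cells of a type and less RNA per cell cannot be told apart.

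Changes were called with edgeR's quasi-likelihood test in 1 model of all 16 libraries, at an adjusted p under 0.05 over 20241 symbols. In LH against non-LH 0 of 6 members were called, where 1.67% of all symbols tested were called in either direction. 3 of the 6 (opn8b, opn3 and valopa) had an unadjusted p under 0.05, and DESeq2 called 1 (opn8b), where it called 1152 of 20241 symbols. The share of all symbols at that unadjusted p was not taken. In cH against non-cH 1 of 6 members, opn3, was called lower, against 13.4% of all symbols called lower and 20.4% called in either direction. The model shares 1 estimate of the spread among groups, and the cH libraries are the most variable. In fits restricted to the 8 libraries of a line, 2 of 4 members past the filter were called in LH (opn8b higher and opn3 lower), where 13.4% of 18674 symbols were called. In the 8 libraries of the other line 1 of 3 members (opn3, lower) was called, where 11.9% of 17265 symbols were called.

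**Figure D1:**
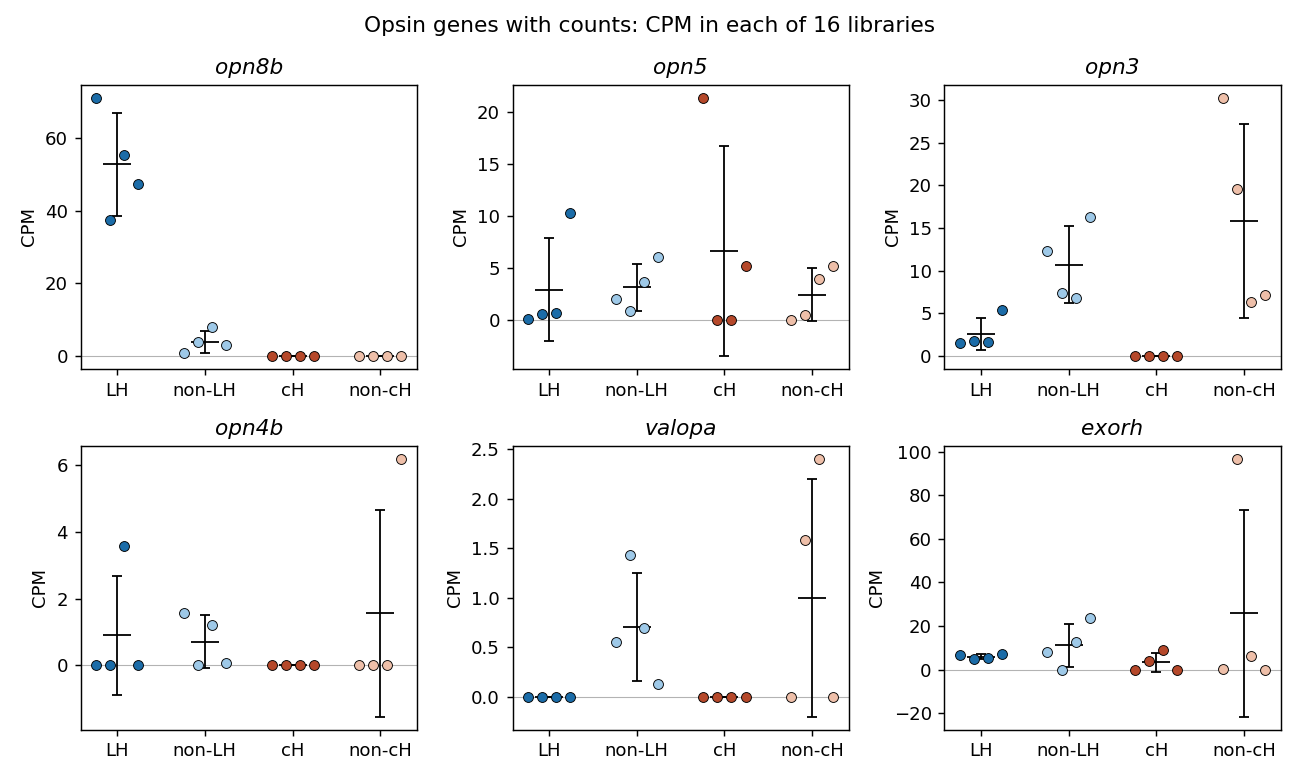
CPM (vertical axes, linear, 1 scale per gene) of the 6 opsin genes with counts in the LH, non-LH, cH and non-cH libraries. Each point is 1 library, and bars give the mean ± SD of 4. opn8b lies between 37.4 and 71.1 CPM in LH and at or near 0 in cH and non-cH, opn3 is at 0 in all 4 cH libraries, and exorh has a single non-cH library at 96.8 CPM.

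The opn8b gene, a member of the opn8 group of opsins related to neuropsin, was high in LH cells, low in non-LH cells and at or near 0 in cH and non-cH cells. The 4 LH libraries stood at 71.1, 37.4, 55.4 and 47.4 CPM, and the 4 non-LH libraries at 0.777, 3.75, 7.95 and 2.90 CPM. The groups did not overlap, and the lowest LH library lay above the highest non-LH library. The means were 52.8 ± 14.2 CPM in LH and 3.84 ± 3.01 CPM in non-LH (SD, n = 4 each), a 13.7-fold ratio. The log2 fold change was 3.78 ± 0.94 SE. It did not pass in the model of 16 libraries (adjusted p = 0.0791) and passed in the fit of the 8 LH and non-LH libraries (3.81 ± 0.60, adjusted p = 0.00228). An exact two-sided permutation test gave p = 0.0286, the smallest that 4 against 4 libraries allow. The call in the larger model moved with the libraries left out. It passed without cH replicate 1 (adjusted p = 0.03) and without cH replicate 2 (adjusted p = 0.0298), and without no other single library. With any 1 library left out the adjusted p ran from 0.0298 to 0.248, the highest without non-LH replicate 4. The log2 fold change itself ran from 3.44 to 4.41 in these fits.

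In the line used for the caudal hypothalamus opn8b was not detected above the floor. All 4 cH libraries had 0 counts, which with a floor of 3 counts over the group allows up to 0.0224 CPM, and the 4 non-cH libraries had 0, 0, 0 and 2 counts. Both groups of that line were at or under the floor, so no fold is given between them. LH was at least 2353-fold higher than cH. Of the 4 groups LH had the highest level, non-LH the next, and cH and non-cH did not differ beyond their counts. The difference between the LH and the cH change had an adjusted p of 0.066.

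The reporter-negative groups also differed in opn8b. It averaged 3.84 ± 3.01 CPM in non-LH and 0.0131 ± 0.0263 CPM in non-cH, with 669 counts over the non-LH libraries and 2 counts over the non-cH libraries, both in replicate 4. The ratio of counts, scaled to library size, was 338 with an exact 95% binomial interval of 93.2 to 2798, which covers counting error only. Every non-LH library lay above every non-cH library. For background, 6.27% of the symbols tested had non-LH and non-cH groups that did not overlap, and among the 6 members opn8b was the 1 that did not. That share takes no account of the level in LH or of the size of the gap. Of 6150 symbols at 30 CPM or more in LH, 1 (0.0163%) had 3 counts or fewer in non-cH, and it was opn8b. The member was chosen with these levels known, so this share is a description. The labels place whole brains in both negative sorts, and the non-cH sort does not remove the cells that the LH line labels. The part of line, sort or library in this difference was not tested.

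By correlation, the genes whose levels most resembled opn8b over the 16 libraries were cd8a (Pearson r = 0.96 of log2(CPM + 1)), slc1a6 (0.94) and ces2 (0.93), among 14366 named symbols. The points share the 4 groups, so these values describe mainly the same order of groups. slc1a6, which encodes a neuronal glutamate transporter, averaged 73.5 ± 31.2 CPM in LH and 1.17 ± 2.06 CPM in non-LH, and 0 CPM in cH and 0.491 ± 0.678 CPM in non-cH. ces2, a carboxylesterase gene, averaged 11.2 ± 4.99 CPM in LH against 0.119 ± 0.237 CPM in non-LH, with 0 counts in cH and non-cH. cd8a, known as a T cell co-receptor gene, averaged 1.47 ± 0.270 CPM in LH against 0.136 ± 0.184 CPM in non-LH, and had 0 counts in the other 2 groups. In the model of 16 libraries slc1a6, ces2 and cd8a were not called in LH (adjusted p = 0.225, 0.253 and 0.609). In RefSeq's gene order for assembly GRCz12tu, which is not the build of the files and was used for order alone, opn8b lies between opn8a, which overlaps runx2b, and fkbp1b. opn8a had 0 counts in every library. fkbp1b, which encodes a small FK506-binding protein, averaged 47.1 ± 8.09 CPM in LH and 30.7 ± 7.62 CPM in non-LH, and 21.6 ± 9.02 CPM in cH and 26.2 ± 5.67 CPM in non-cH. runx2b, a runt transcription factor gene, stayed under 1 CPM in every group mean, from 0.460 in cH to 0.988 in non-cH. Neither fkbp1b nor runx2b was called in LH (adjusted p = 0.729 for fkbp1b and 1 for runx2b). Both had counts in non-cH, unlike opn8a, and without the near absence that opn8b showed there. LOC141379446, which overlaps opn8b in that order, was not among the deposited symbols.

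The neuropsin gene opn5, whose product is known as an ultraviolet-sensitive opsin, varied more within groups than between them. The LH libraries stood at 0.0563, 0.535, 0.646 and 10.3 CPM and the non-LH libraries at 2.03, 0.803, 3.67 and 6.04 CPM. The cH libraries stood at 21.4, 0, 0 and 5.17 CPM and the non-cH libraries at 0, 0.482, 3.96 and 5.20 CPM. Each group thus spanned from under 1 CPM to over 5 CPM, and all groups overlapped. The log2 fold change was -0.12 ± 1.99 in LH (adjusted p = 1) and 1.46 ± 2.03 in cH (adjusted p = 0.685), with exact permutation p of 0.914 and 0.714. Single libraries set both signs: leaving out LH replicate 4 moved the LH value to -2.88, leaving out non-LH replicate 4 moved it to 0.41, and leaving out cH replicate 1 moved the cH value to -0.4. The LH and cH changes differed by -1.58 ± 2.83 (adjusted p = 0.822). The genes most like opn5 were drd2l (Pearson r = 0.82 over 16 libraries), a dopamine receptor gene, tnpo2 (0.8), which encodes a nuclear import receptor, and trmt2b (0.8), a transfer RNA methyltransferase gene. drd2l averaged 4.54 ± 2.91 CPM in LH and 8.26 ± 1.59 CPM in non-LH, and 24.6 ± 40.0 CPM in cH and 5.94 ± 4.58 CPM in non-cH.

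**Figure D2:**
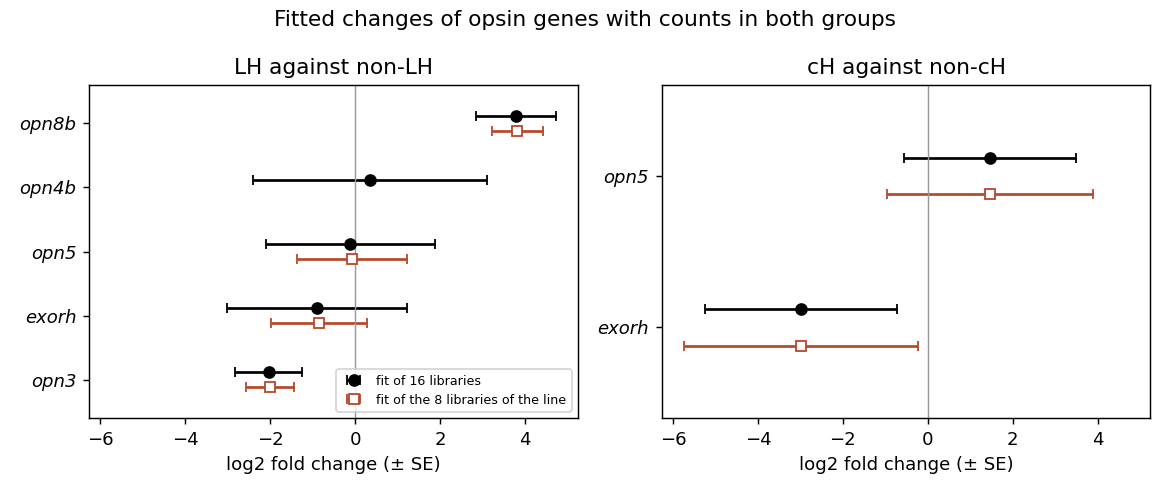
Log2 fold changes ± SE (horizontal axes) of LH against non-LH and of cH against non-cH for opsin genes with counts in both groups, from the model of 16 libraries (black circles) and from the 8 libraries of the line (open squares). The opn8b value is 3.78 in the first fit and 3.81 in the second, with a smaller SE in the second, and the bars of opn5, opn4b and, in LH, exorh cross 0.

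Encephalopsin, the product of opn3, is an opsin known from wide expression in brain and other tissues. The 4 cH libraries all had 0 counts of opn3, while the non-cH libraries stood at 30.2, 19.5, 6.31 and 7.10 CPM, a mean of 15.8 ± 11.4 (SD, n = 4). cH was at least 704-fold lower by the floor of 3 counts over the group. The fall passed in the model of 16 libraries (adjusted p = 3.25e-05) and in the 8 libraries of the line (adjusted p = 0.0127), and an exact permutation test gave p = 0.0286. It held with any single library left out (adjusted p from 4.48e-05 to 0.00015) and with cH replicates 1 and 2 set aside (adjusted p = 9.04e-05). It was the 1 of 6 members whose cH and non-cH groups did not overlap, where 24.8% of all symbols tested did not overlap. Of 4393 symbols with a mean of 10 to 30 CPM in non-cH, a range set after the value was seen, 104 (2.37%) had 0 counts in all 4 cH libraries. The fall came with the lower pan-neuronal sums of the cH libraries given above, whose part in it was not tested.

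In LH, opn3 stood at 1.58, 1.77, 1.61 and 5.41 CPM, and in non-LH at 12.3, 7.42, 6.78 and 16.3 CPM. The groups did not overlap, although LH replicate 4 lay close to the lowest non-LH library. The means were 2.59 ± 1.88 CPM in LH and 10.7 ± 4.48 CPM in non-LH (SD, n = 4 each). The log2 fold change was -2.04 ± 0.78 in the model of 16 libraries (adjusted p = 0.338) and -2.0 ± 0.56 in the 8 libraries of the line (adjusted p = 0.0421). An exact permutation test gave p = 0.0286. The difference between the LH and the cH change was itself called for opn3 (adjusted p = 0.000455), where 12.1% of all symbols were called for such a difference. The negative groups overlapped, at 10.7 ± 4.48 CPM in non-LH and 15.8 ± 11.4 CPM in non-cH. The order of the levels was non-cH, non-LH, LH and cH, of which the first pair did not differ beyond its spread. The genes most like opn3 over the 16 libraries were eomesb, mrc1a and lmo2 (Pearson r = 0.94 each). eomesb, a T-box factor gene, averaged 10.2 ± 7.06 CPM in LH and 72.9 ± 16.6 CPM in non-LH, and 0 CPM in cH and 102 ± 33.6 CPM in non-cH. mrc1a encodes a mannose receptor of endothelial cells and macrophages, and lmo2 a transcriptional adaptor of blood and vessel cells; both were at 0 in cH. Endothelial markers, a list of 5, summed to 58.4 to 123 CPM in LH and 32.9 to 86.2 CPM in non-LH, and to 0 to 15.4 CPM in cH and 54.0 to 158 CPM in non-cH. Erythrocyte markers were a list of 6 names that stand for 5 genes, all found. They summed to 47.0 to 92.4 CPM in LH and 1634 to 2524 CPM in non-LH, and to 0.188 to 9.94 CPM in cH and 991 to 2691 CPM in non-cH. The part of such cells in the opn3 values was not tested. The named neighbours of opn3 in RefSeq's order were cdc42ep3, a Cdc42 effector gene, and kmo. cdc42ep3 averaged 38.4 ± 8.54 CPM in LH against 12.8 ± 7.40 CPM in non-LH (adjusted p = 0.884). In cH cdc42ep3 averaged 0.734 CPM, against 8.49 CPM in non-cH (log2 fold change -3.51 ± 1.24, adjusted p = 0.058), and was not called. kmo had 8 counts in LH replicate 3 and 0 in every other library. LOC141377053, which overlaps opn3 in that order, was not among the deposited symbols.

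The melanopsin gene opn4b, whose product belongs to the Gq-coupled opsins, was found in 5 of 16 libraries. LH had 3.58 CPM in replicate 3 and 0 in the other 3 libraries, and non-LH had 1.55, 0, 1.21 and 0.0514 CPM. cH had 0 in all 4 libraries, and non-cH had 6.20 CPM in replicate 4 and 0 in the others. A single library thus made up all the signal of LH and of non-cH. The LH change was 0.35 ± 2.76 (adjusted p = 1), and the sign turned when LH replicate 3 was left out. In cH the gene was at least 69.1-fold lower than in non-cH by the floor, a bound that rests on non-cH replicate 4 alone (adjusted p = 0.136, exact permutation p = 1). DESeq2, run as an alternative, called opn4b lower in cH (adjusted p = 5.57e-07).

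Of the vertebrate ancient opsin genes, which encode an early branch near the visual and pineal pigments, valopa had counts in the reporter-negative groups alone. All LH and all cH libraries had 0 counts. The non-LH libraries had 24, 59, 32 and 5 counts (0.548, 1.44, 0.691 and 0.128 CPM), and the non-cH libraries had 0, 72, 107 and 0 counts (0, 1.58, 2.40 and 0 CPM). LH was at least 34.5-fold lower than non-LH, with an exact permutation p of 0.0286 and an adjusted p of 0.259 in the model. cH was at least 44.4-fold lower than non-cH, with an exact permutation p of 0.429 and an adjusted p of 0.0555. The cH value lies close to the threshold and passed in 3 of 22 alternatives: DESeq2 (adjusted p = 0.0374), and without non-cH replicate 1 (0.0412) or replicate 4 (0.0443), both at 0. In LH the members whose groups did not overlap were opn8b, opn3 and valopa, 3 of 6, where 20.8% of all symbols tested did not overlap. With the floor of 3 counts over a group, the counts of 0 allow up to 0.0203 CPM in LH and 0.0224 CPM in cH.

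Exo-rhodopsin, the product of exorh, is the rhodopsin-like pigment of the pineal organ. The LH libraries stood at 6.47, 4.71, 5.29 and 7.31 CPM, the narrowest range of the 4 groups. The non-LH libraries stood at 8.00, 0, 12.8 and 23.7 CPM. The cH libraries stood at 0, 3.84, 9.21 and 0 CPM, and the non-cH libraries at 0.137, 96.8, 6.25 and 0 CPM. All groups overlapped, with 4414 of the 7818 counts of the gene in non-cH replicate 2. The log2 fold change was -0.90 ± 2.11 in LH (adjusted p = 1, exact permutation p = 0.343) and -2.98 ± 2.26 in cH (adjusted p = 0.402, exact permutation p = 0.629). Without non-cH replicate 2 the cH value turned to 0.68. The LH and cH changes differed by 2.08 ± 3.0 (adjusted p = 0.765). The table holds 2 rows of the gene, with 79.0% and 21.0% of its counts, and reads of near-identical copies may have been split between them.

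The library highest in exorh was also highest in 7 of the 23 other pineal and photoreceptor markers with counts, while 10 of the 23 were at 0 there. Non-cH replicate 2 held 52.4% of the summed CPM of exorh over the 16 libraries, 54.9% of that of asmt, the gene of the last enzyme of melatonin synthesis, 81.9% of crx, a pineal and photoreceptor transcription factor gene, and 81.8% of saga, a rod arrestin gene. saga was at 32.0 CPM there and at 0 in the other 3 non-cH libraries. The pineal list of 7 genes summed to 5.97 to 37.6 CPM in non-cH, and the list of 18 retinal photoreceptor genes to 0.753 to 63.0 CPM. In LH the pineal list summed to 2.17 to 5.80 CPM, with 2 of 7 genes, crx and otx5, at 0 in all 4 libraries. The other pineal genes averaged 2.02 (asmt2), 1.60 (bsx), 0.501 (aanat2), 0.461 (asmt) and 0.0134 CPM (aanat1) in LH. The photoreceptor list summed to 6.78 to 17.9 CPM in LH, with 8 of 18 genes at 0, saga among them. Over all 16 libraries crx had counts in 2, and otx5 and saga in 4 each, so their zeros in LH say little. The cone transducin gene gnat2 averaged 5.29 ± 1.83 CPM in LH and 1.17 ± 1.40 CPM in non-LH. otx5 was at 0 in non-cH replicate 2 too, and had counts in the other 3 non-cH libraries. rho, the rod pigment gene, had counts in a single library, LH replicate 2, at 2.12 CPM. asmt, at 0 in all cH libraries, was called lower in cH (adjusted p = 0.0275), a call whose non-cH mean rests mainly on replicate 2. In cH the pineal list summed to 10.5 to 54.1 CPM, with 4 of 7 genes at 0. Most of that sum was the single gene bsx, at 18.38, 54.06, 11.05 and 10.47 CPM in cH replicates 1 to 4. The sum therefore does not speak for the other pineal genes in cH. The photoreceptor list summed there to 0 to 17.3 CPM, with 15 of 18 genes at 0. Higher means in cH included bsx, at 23.5 ± 20.7 CPM against 6.75 ± 4.02 CPM in non-cH, and pde6b, at 6.2 ± 7.8 against 0.987 ± 1.97 CPM. Neither was called (adjusted p = 0.107 and 0.568). Of 5 pineal genes tested in cH 0 were called higher and 1 lower, and of 7 photoreceptor genes 0 and 3. Over all symbols 13.4% were called lower in that model of 16 libraries. In the 8 cH and non-cH libraries 2 pineal genes and 1 photoreceptor gene were tested and 0 called. That fit called 11.9% of all symbols. The genes most like exorh over the 16 libraries were fn1a (Pearson r = 0.77), a fibronectin gene, megf6a (0.76) and saga (0.73). The part of pineal or retinal cells in the exorh values was not tested.

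**Figure D3:**
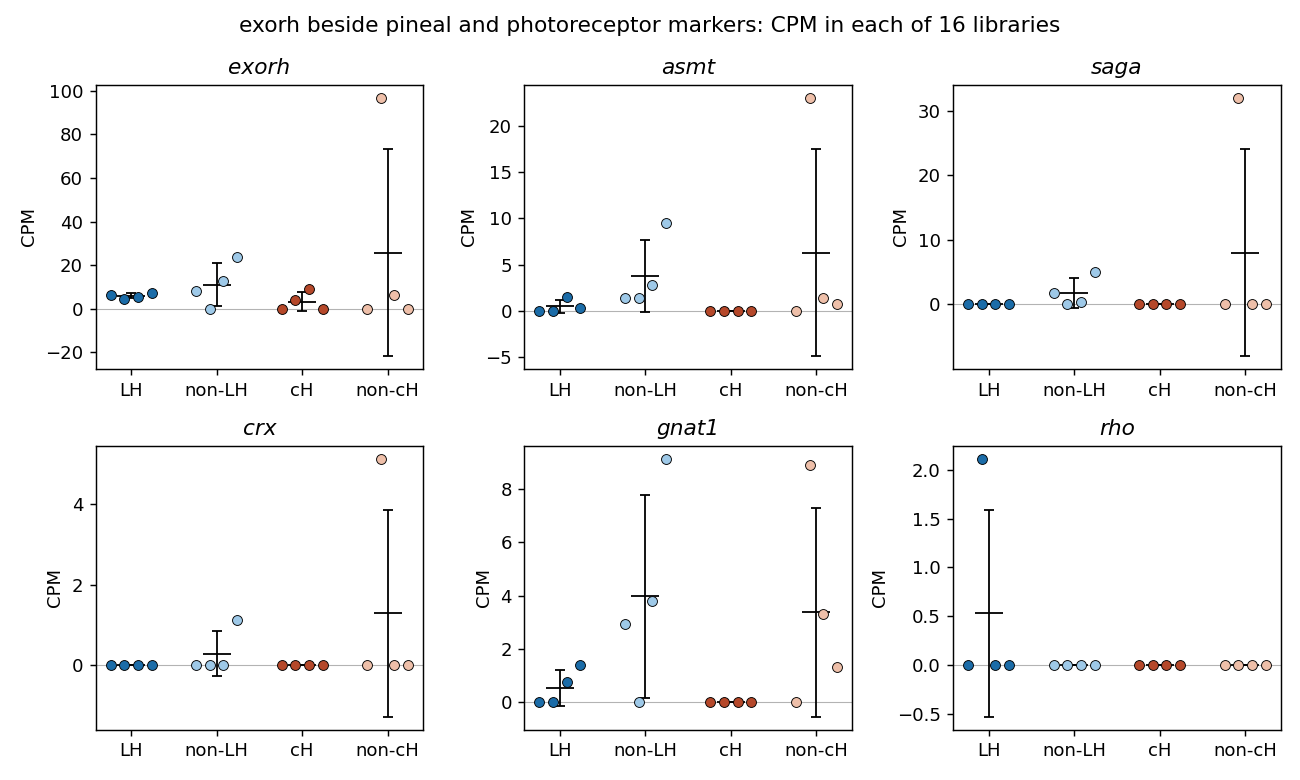
CPM (vertical axes, linear, 1 scale per gene) of exorh, the pineal gene asmt, the rod arrestin gene saga, the factor gene crx, the rod transducin gene gnat1 and the rod pigment gene rho. Each point is 1 library, and bars give the mean ± SD of 4 libraries. exorh, asmt, saga and crx share their highest library, non-cH replicate 2. In LH exorh stands at 4.71 to 7.31 CPM, with asmt at up to 1.53 CPM and saga and crx at 0. saga and crx have counts in only 4 and 2 of the 16 libraries.

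The melanopsin gene opn4a, the opn8 genes opn8a and opn8c, and the vertebrate ancient opsin gene valopb had 0 counts in all 16 libraries. With a floor of 3 counts over all libraries this allows up to 0.00481 CPM. Of all 30565 symbols, 4064 (13.3%) were at 0 throughout. opn4a and valopb each have a second row in the table, and 24.3% of symbols with 2 or more rows were at 0 throughout, against 10.7% of those with 1 row (transfer RNA genes left out). How the counting treated reads of near-identical copies is not given in the sources used here. The other 2 opn8 genes thus had no counts in the LH libraries that held opn8b. What part depth or the handling of reads had in these zeros was not tested.

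The other nonvisual opsin genes formed a list of 21, taken from knowledge of the family, of which 21 had counts and 13 were tested. In LH edgeR called 0 of 13, with 1 at an unadjusted p under 0.05, 1 lower with DESeq2 and 1 lower in the 8 libraries of the line. The median log2 fold change there was -0.71, and -0.06 over all symbols tested. In cH 1 was higher and 2 lower (1 and 3 with DESeq2), with a median of -1.53, and -0.32 over all symbols. Of all symbols tested, 1.67% were called in LH and 20.4% in cH in the model of 16 libraries. In the 8 libraries of a line the shares were 13.4% and 11.9%. tmtops3a and tmtopsa, of the teleost multiple tissue opsin family, were at 0 in all cH libraries and averaged 14.9 ± 8.88 and 2.31 ± 1.18 CPM in the non-cH libraries. By the floor they were at least 666-fold and 103-fold lower (adjusted p = 0.00223 and 0.00152). tmtops2a, named after its values were seen, was at 17.5, 9.07, 9.32 and 4.22 CPM in cH and at 0.730, 0.570, 2.36 and 0.657 CPM in non-cH, a log2 fold change of 3.21 ± 0.92 (adjusted p = 0.0213). Each cH library lay above each non-cH library, but the call was lost in the 8 libraries of the line, where 0 of 10 were called higher and 2 lower. The melanopsin gene opn4.1, also named after its values were seen, was at 36.5, 23.4, 0.921 and 12.4 CPM in cH and at 0, 0, 2.00 and 2.31 CPM in non-cH (4.08 ± 2.39, adjusted p = 0.257). cH replicate 3 lay within the non-cH range, so these groups overlapped. Of the 21 genes in this list, 12 were at 0 in all cH libraries, against 4 in non-cH, 6 in LH and 2 in non-LH. Apart from tmtops3a and tmtopsa, those at 0 in cH averaged 0 to 1.26 CPM in non-cH. The share of all symbols at 0 in each group was not taken, and the cH libraries detected fewer symbols. The cH libraries, all at 0 for opn3, thus held counts of some of the other opsin genes and none of others.

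**Figure D4:**
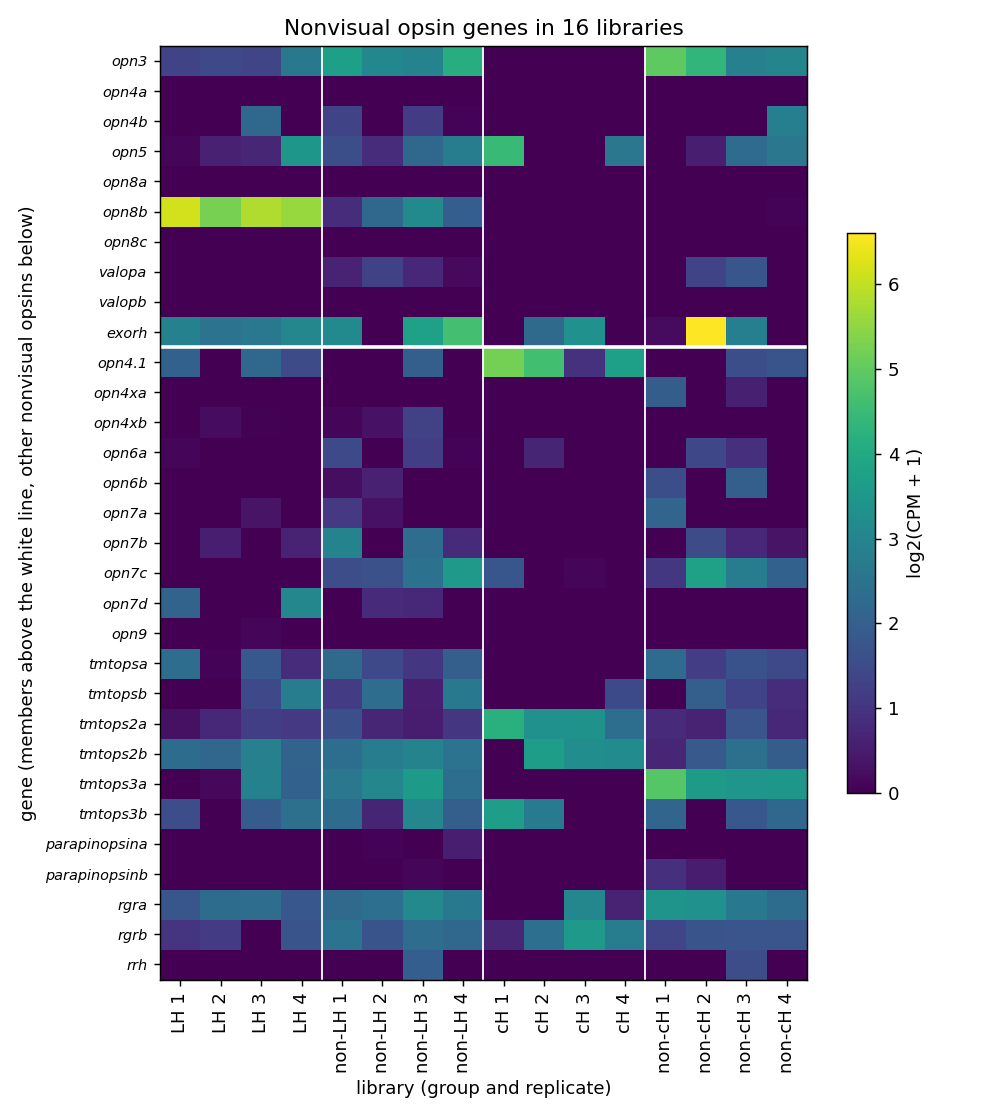
Log2(CPM + 1) (colour) of the 10 members, above the white line, and of 21 other nonvisual opsin genes, below it, in each of the 16 libraries (columns, by group and replicate). opn8b is highest in the 4 LH libraries, opn3 and tmtops3a are at 0 in the 4 cH libraries, and tmtops2a has counts in all 4 cH libraries.

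Genes that act with opsins were taken as 4 further lists. Over all symbols in LH, 123 of 20241 were called higher and 215 lower in the model of 16 libraries. In the 8 libraries of that line 1334 of 18674 were higher and 1165 lower. For cH 1425 of 20241 were higher and 2712 lower, and in its 8 libraries 872 of 17265 were higher and 1182 lower. DESeq2 called 1152 of 20241 in LH and 6008 in cH. The share of all symbols at an unadjusted p under 0.05 was not taken. Of the melanopsin-type Gq cascade, 17 genes were tested. In LH 0 were called by edgeR in the model of 16 libraries, 4 had an unadjusted p under 0.05, DESeq2 called 0, and 7 of 17 were called higher and 0 lower in the 8 libraries of the line. In cH 2 were higher and 5 lower (2 and 6 with DESeq2), and in the 8 libraries of that line 0 of 13 were higher and 2 lower. Of those lower, plcb4, a phospholipase C gene, had no cH counts against a mean of 1.80 ± 1.39 CPM in non-cH, which puts cH at least 80.4-fold lower (adjusted p = 0.00408). trpc6a, a cation channel gene, likewise had no cH counts against a non-cH mean of 5.01 ± 4.59 CPM, at least 223-fold lower (adjusted p = 0.00386). The Gq list summed to 621 to 702 CPM in LH and 338 to 389 CPM in non-LH, ranges that did not overlap. For single symbols, 20.8% of those tested did not overlap between these groups. Sums of the other lists of genes that act with opsins did not overlap either. In LH and non-LH the other G protein subunits summed to 2383 to 2705 and 2259 to 2310 CPM. Kinases and arrestins summed to 704.5 to 799.9 and 551.5 to 646.9 CPM. Retinoid supply genes, lower in LH, summed to 322.8 to 475.9 and 492.7 to 565 CPM. Sums of the other nonvisual opsins overlapped, and no sums of genes outside the lists were taken. A sum of CPM weighs the most abundant genes most, so it does not speak for the list gene by gene. Of 13 subunit genes of the other G proteins, 0 were called in LH (2 at an unadjusted p under 0.05, 0 with DESeq2, 2 higher in the 8 libraries of the line). In cH 2 were higher and 2 lower (2 and 2 with DESeq2), and in the 8 libraries of that line 2 and 0. gnai3 and gnai2a, of the inhibitory alpha subunits, rose in cH by 3.47 ± 0.38 and 1.45 ± 0.26 (adjusted p = 1.22e-05 and 0.000862). Of 12 kinase and arrestin genes of receptor shut-off, 0 were called in LH (2 at an unadjusted p under 0.05, 1 higher and 1 lower with DESeq2, 2 higher in the 8 libraries of the line) and 2 were lower in cH, where the 8 libraries gave 0 and DESeq2 1 higher and 3 lower. These were grk4, a receptor kinase gene, at -0.91 ± 0.20 (adjusted p = 0.00451), and the cone arrestin gene arr3a, at 0 in cH.

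Of 26 tested genes of retinoid supply, which make or carry the opsin chromophore and related retinoids, 1 was higher and 2 lower in LH, and 4 were higher and 1 lower in cH. In the 8 libraries of each line 1 was higher and 5 lower in LH, and 2 were higher and 1 lower in cH. DESeq2 gave 1 higher and 3 lower in LH, and 7 higher and 2 lower in cH. Of all symbols tested, 1.67% were called in LH and 20.4% in cH in the model of 16 libraries. In the 8 libraries of a line the shares were 13.4% and 11.9%. rdh12, a retinol dehydrogenase gene, was at 124 ± 10.0 CPM in LH and 28.7 ± 6.96 CPM in non-LH (2.11 ± 0.33 as log2 fold change, adjusted p = 0.00427). crabp1a, which encodes a retinoic acid binding protein, was at 10.9 ± 3.15 CPM in LH and 46.7 ± 2.41 CPM in non-LH (-2.10 ± 0.37, adjusted p = 0.0083). In cH, rpe65c, a retinoid isomerase gene, was at 222 ± 70.6 CPM against 12.4 ± 5.52 CPM in non-cH (4.17 ± 0.54, adjusted p = 5.86e-05). bco2a, which encodes a carotenoid oxygenase, was at 56.8 ± 27.0 CPM in cH and 9.03 ± 5.09 CPM in non-cH (2.65 ± 0.65, adjusted p = 0.00925). The list had a median log2 fold change of -1.31 in LH, where that of all symbols was -0.06, and of 1.40 in cH, where that of all symbols was -0.32. With genes at 0 in a group set to their bound, the list medians given here did not move, and that of all symbols in cH was -0.31.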

How the data were processed

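Per the submitters' processing notes, reads were checked with FastQC and aligned with STAR to GRCz11. Versions, the counting program, its handling of multi-mapping reads and any use of strand are not given in the sources used here. Per the labels' protocols, RNA (0.5 ng) was amplified over 16 cycles with a SMART-seq protocol. The authors deposited raw counts for each gene, not normalised, in 47038 rows; 9 rows that held pieces of coordinate strings were left out. Counts were summed per symbol. Many counts are even (65.1% of values from 1 to 200, and 12 of 12 for exorh and 5 of 5 for opn4b); if each mate was counted, on which the labels are silent, intervals are too narrow and lower bounds too high.

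edgeR 4.0.16 under R 4.3.3 was run with filterByExpr defaults (minimum count 10, minimum total 15), TMM factors and the robust quasi-likelihood F test on 4 group means. Tests were two-sided, p-values were adjusted by Benjamini-Hochberg over all symbols tested, and the threshold was 0.05. SE is the log2 fold change over the square root of F. Where a group had 0 counts, folds are bounds against 3 counts over the group. Floors and intervals cover counting error only, since reads carry no molecular identifiers. The labels call the replicates biological; p-values measure the spread between these pools. Alternatives were rows as deposited, the 8 libraries of a line, RLE scaling, no filter, DESeq2 1.42.0, a replicate block, and libraries left out. Same-numbered libraries of a line deviated together with correlations of 0.004 to 0.064, so the numbers were not taken to pair them. Members and lists were chosen with earlier results of these data known. Named were all members, the 3 genes most like each of the 4 members with the highest mean, and the 2 list genes with the smallest p, if called. The fit was also run on simulated counts drawn with the same spread in every group. That run cannot show how the fit handles the more variable cH libraries. RefSeq names are from assembly GRCz12tu.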

Additional observations from a re-analysis of the deposited data

Results flagged for a closer look

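Of 19 sets of 4 libraries with any counts of a member, 6 held a library whose gap to the next value was above Dixon's 95% critical value. Chance gives about 1 set in 20 for normally distributed values, and whether these levels are so distributed was not tested. In 3 of the 6 (opn4b in LH and in non-cH, opn8b in non-cH) the other 3 libraries were at 0, which sets the gap to the whole range, so that figure does not apply to them. opn3 was at 5.41 CPM in LH replicate 4, against 1.77 CPM in the next LH library, and opn5 was at 10.3 CPM in the same library, against 0.646 CPM. opn4b was at 3.58 CPM in LH replicate 3 and at 6.20 CPM in non-cH replicate 4, with 0 in every other library of each group. opn8b was at 0.0526 CPM in non-cH replicate 4, which is 2 counts. exorh was at 96.8 CPM in non-cH replicate 2, against 6.25 CPM in the next non-cH library. For opn3 the change in LH differed from the change in cH in the model of 16 libraries (edgeR, adjusted p = 0.000455); all 4 cH libraries were at 0.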

How the results depend on the processing

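Called members in LH against non-LH were 0 in the model of 16 libraries, 2 in the 8 libraries of the line, 1 with DESeq2 (opn8b), 1 without cH replicates 1 and 2 together (opn8b), and 0 to 1 with single libraries left out. In cH against non-cH they were 1 in the model of 16 libraries, 3 with DESeq2 (opn3, opn4b and valopa), and 1 to 2 with single libraries left out. For the difference of the changes they were 1, and 3 with DESeq2 (opn3, opn4b and opn8b), and 1 with each single library left out. The cause of these differences was not tested. Over all symbols, LH gave 338 calls, 2499 in the 8 libraries, 1152 with DESeq2, 95 with the replicate block, 1376 without cH replicates 1 and 2, and 151 to 617 with 1 library left out. cH gave 4137, 2054 in the 8 libraries, 6008 of 20241 with DESeq2, 2925 with the replicate block, 5801 without cH replicates 1 and 2, and 3326 to 4899 with 1 library left out. The difference gave 2440, 4150 with DESeq2, 1529 with the replicate block, 4697 without cH replicates 1 and 2, and 1870 to 3386 with 1 library left out. The replicate block changed no member's call (opn8b in LH 4.07, adjusted p = 0.271). Same-numbered libraries matched best in 3 of 4 LH pairs and 2 of 4 cH pairs.

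Of 403 member values under an alternative, 377 kept direction and side of the threshold, 12 newly passed and 14 changed sign, all of them uncalled. Those with the replicate block were opn4b in LH (-2.73), opn5 in cH (-2.23) and opn5 in the difference (0.53). With 1 library left out, opn4b in LH ran from -7.78 to 1.08, opn5 in LH from -2.88 to 0.41, opn5 in cH from -0.4 to 2.16 and in the difference from -4.37 to 0.33, and exorh in cH from -4.32 to 0.68 and in the difference from -1.55 to 3.46. opn4b and valopa did not pass the filter in the 8-library fits, nor did opn8b in cH, and the difference cannot be fitted there. At this depth the counts behind valopa came to 299 and those behind opn4b to 484 over the 16 libraries.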
